A study of Arabidopsis thaliana with 8 samples.

Results

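Flavonoids are plant phenolics built from a common chain of enzymes that branches to flavonols, to tannins and to the red and purple anthocyanins. The early enzymes (CHS, CHI, F3H and F3'H) make dihydroflavonols, and the late enzymes (DFR, LDOX and UF3GT) turn these into anthocyanins and decorate them with sugar. PAP1 is a MYB transcription factor that, together with bHLH and WD40 partner proteins, switches on the late genes, and in Arabidopsis shoots the pathway is known to respond to light, sugar and stress. Described here are 8 probe sets for these genes, of 22716 probe sets tested, picked by their array identifiers, with earlier results of these data known.

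The 8 arrays came from untreated, 18-day-old shoots of Arabidopsis thaliana, ecotype Col-0, in 4 genotypes, namely wild type, bpc4 bpc6, lhp1-4 and their combination lhp1-4 bpc4 bpc6 (called the triple mutant), with 2 biological replicates each and 6 plants pooled per replicate. LHP1 is a chromodomain protein of Polycomb silencing, and BPC4 and BPC6 are BASIC PENTACYSTEINE proteins that bind GAGA repeats in DNA. According to its title, the study concerns recruitment of LHP1 to such repeats by BPC6. The nature of the alleles is not stated in the labels, and neither the mutated transcripts nor tissue markers were checked here, because only the 8 probe sets could be paired with genes.

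Median array intensities ran from 54.7 to 58.3, and log2 intensities of replicates correlated at 0.993 to 0.997. Intensities are RMA-processed fluorescence values without a unit, and the number of arrays limits their precision. They are compared between genotypes for 1 probe set at a time and never between genes. Values of 1000 or more appeared in the deposited table divided by 1000 and were multiplied back, which affected 6 of the 8 CHS arrays and 1 F3H array. Shoot RNA is a bulk measure, so fewer cells that express a gene and less transcript per cell cannot be told apart.

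The early enzymes did not share 1 pattern. CHS (250207_AT, AT5G13930), chalcone synthase, which makes the first compound of the pathway, read 1283 and 1350 in wild type, 2322 and 2853 in bpc4 bpc6, 1204 and 1262 in lhp1-4, and 611.3 and 815.7 in the triple mutant. Both bpc4 bpc6 arrays stood above and both triple mutant arrays below all others. CHI (251827_AT, AT3G55120), chalcone isomerase, which closes the third ring, read 147.7 and 210.6 in wild type, 303.2 and 491.5 in bpc4 bpc6, 299.3 and 325.1 in lhp1-4, and 261.8 and 341.8 in the triple mutant. F3H (252123_AT, AT3G51240), flavanone 3-hydroxylase, read 317.7 and 409.9 in wild type, 737.1 and 1047 in bpc4 bpc6, 739.3 and 745.5 in lhp1-4, and 573.3 and 620.7 in the triple mutant. For CHI and F3H the wild type arrays were the lowest. The mutants overlapped for CHI, while for F3H the triple mutant lay between wild type and the other mutants. F3'H (250558_AT, AT5G07990), flavonoid 3'-hydroxylase, which adds the hydroxyl group that separates quercetin and cyanidin from kaempferol and pelargonidin, read 34.62 and 47.49 in wild type, 57.09 and 97.25 in bpc4 bpc6, 51.09 and 51.21 in lhp1-4, and 29.91 and 35.71 in the triple mutant. It was highest in bpc4 bpc6, while wild type and the triple mutant overlapped.

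The late enzymes shared an order in which bpc4 bpc6 had the highest mean and the triple mutant the lowest. DFR (249215_AT, AT5G42800), dihydroflavonol 4-reductase, which commits the pathway to anthocyanins and tannins, read 134.2 and 151.8 in wild type, 195.7 and 378.5 in bpc4 bpc6, 58.70 and 106.3 in lhp1-4, and 27.94 and 17.92 in the triple mutant. The 4 genotypes did not overlap for DFR. LDOX (254283_S_AT, AT4G22880), leucoanthocyanidin dioxygenase, which forms the coloured anthocyanidin, read 331.5 and 391.2 in wild type, 377.2 and 710.4 in bpc4 bpc6, 173.1 and 216.7 in lhp1-4, and 94.53 and 66.22 in the triple mutant. Its wild type and bpc4 bpc6 arrays overlapped, and those of the other genotypes did not. On arrays of this maker the suffix _S_AT marks probes that can match more than 1 transcript. UF3GT (248185_AT, AT5G54060), a glycosyltransferase that adds a sugar to anthocyanins, read 49.34 and 69.37 in wild type, 95.26 and 141.2 in bpc4 bpc6, 39.63 and 72.63 in lhp1-4, and 25.43 and 20.97 in the triple mutant. Its wild type and lhp1-4 arrays overlapped.

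PAP1 (245628_AT, AT1G56650), the activator, read 27.85 and 27.25 in wild type, 81.33 and 154.3 in bpc4 bpc6, 33.16 and 39.68 in lhp1-4, and 50.30 and 32.05 in the triple mutant. Both bpc4 bpc6 arrays lay above all others, and lhp1-4 overlapped with the triple mutant. Among the 8 genes bpc4 bpc6 had the highest mean log2 intensity in 8. The lowest was the triple mutant in 5 (CHS, F3'H, DFR, LDOX and UF3GT) and wild type in 3 (CHI, F3H and PAP1).

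**Figure D1:**
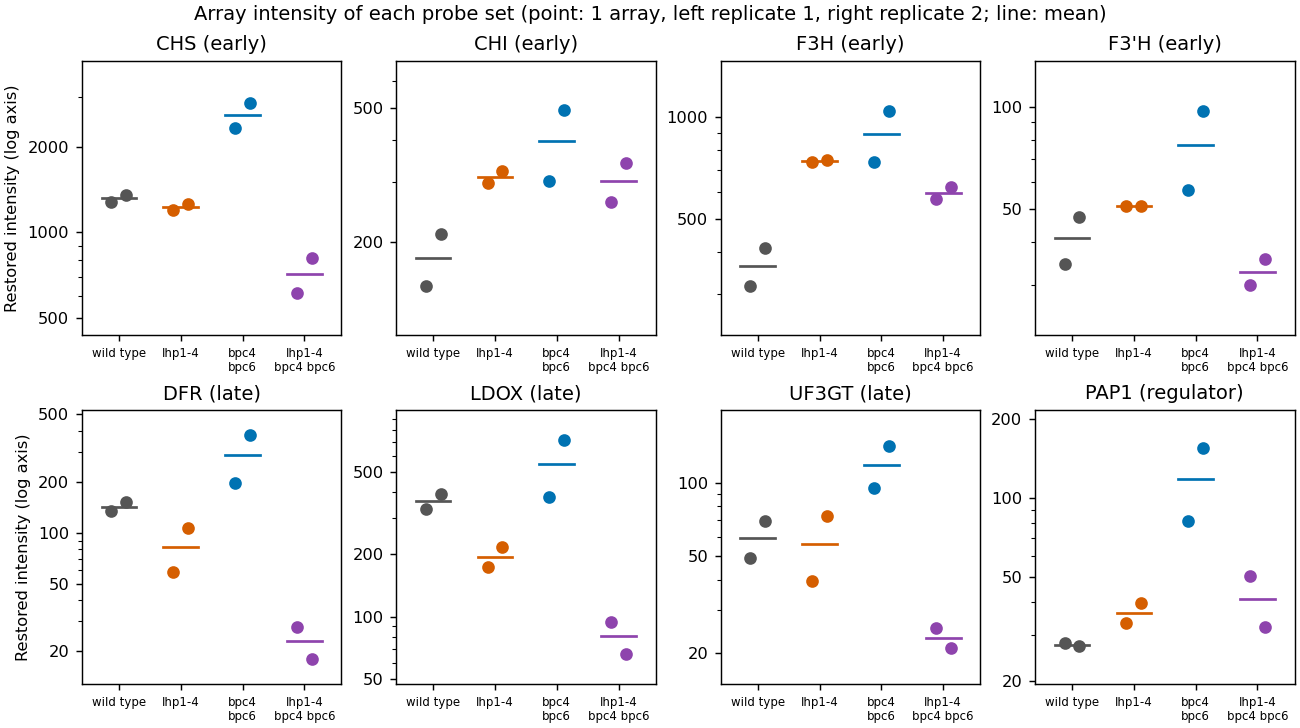
Restored intensity on a log axis for each of the 8 probe sets, with 1 point per array and a line at the mean of each genotype. The triple mutant points of DFR, LDOX and UF3GT lie below those of every other genotype, while for CHI and F3H the wild type points are lowest.

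Changes are differences of mean log2 intensity from limma with its standard error (SE) and n = 2 arrays per genotype throughout, and folds are taken from them. A probe set passed the test at a Benjamini-Hochberg adjusted p under 0.05 over all 22716 probe sets. Where 1 array was left out, its genotype had a single array, which was assumed to vary like the others, and the test had fewer degrees of freedom.

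In the triple mutant the late anthocyanin genes fell well below wild type, while F3H rose and the transcript of the activator did not pass the test. DFR fell 6.38-fold, a log2 change of -2.67 ± 0.40 (adjusted p = 0.00423, limma), which ranked 25 from the lowest of all probe sets. LDOX fell 4.55-fold, with a log2 change of -2.19 ± 0.31 (adjusted p = 0.00366, limma). UF3GT fell 2.53-fold, with a log2 change of -1.34 ± 0.33 (adjusted p = 0.0273, limma). The first enzyme of the pathway went the same way by a smaller amount: CHS fell 1.86-fold, with a log2 change of -0.90 ± 0.16 (adjusted p = 0.00838, limma). F3H rose 1.65-fold, with a log2 change of 0.73 ± 0.19 (adjusted p = 0.0330, limma). CHI, beside it in the pathway, had a log2 change of 0.76 ± 0.27 (adjusted p = 0.0875, limma), and F3'H one of -0.31 ± 0.26 (adjusted p = 0.418, limma). PAP1 stood at a log2 change of 0.54 ± 0.32 (adjusted p = 0.267, limma), with a 95% confidence interval from -0.22 to 1.31. It stood at 0.22 without triple mutant replicate 1 and at 0.87 without replicate 2. In all, 5 of 8 members passed the test, 4 of them lower and 1 higher, where 23.5% of all probe sets passed, 12.0% lower and 11.5% higher. Among the 11882 probe sets with a mean intensity of at least 50, 39.6% passed. The median log2 change was -2.19 for the 3 late genes, 0.21 for the 4 early genes and -0.09 for all probe sets. CHS, DFR and LDOX passed with each array left out in turn, but 3 of 8 passed without wild type replicate 1 or without either triple mutant replicate, and with array weights, where 3711 to 4006 of all probe sets passed. The call of UF3GT also ended without wild type replicate 2 (adjusted p = 0.110, limma), that of F3H without either lhp1-4 replicate (adjusted p = 0.0629, limma), CHI passed without either bpc4 bpc6 replicate (0.0493), and the direction of CHS rests on the restored scale.

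In bpc4 bpc6 all 8 genes had higher mean log2 intensities than in wild type, and the activator and 2 early genes passed the test. PAP1 rose 4.07-fold over wild type, a log2 change of 2.02 ± 0.32 (adjusted p = 0.0392, limma), and ranked 19 from the highest of all probe sets. F3H rose 2.43-fold, with a log2 change of 1.28 ± 0.19 (adjusted p = 0.0318, limma). CHS rose 1.96-fold, with a log2 change of 0.97 ± 0.16 (adjusted p = 0.0432, limma). The other 5 genes had positive log2 changes that did not pass the test, from 0.52 ± 0.31 for LDOX (adjusted p = 0.481, limma) to 1.13 ± 0.27 for CHI (adjusted p = 0.0940, limma). Among these, DFR stood at 0.93 ± 0.40 and UF3GT at 0.99 ± 0.33. Single bpc4 bpc6 arrays moved several of them: DFR stood at 0.46, LDOX at 0.07 and F3'H at 0.49 without replicate 2, while DFR stood at 1.41 and LDOX at 0.98 without replicate 1. Thus 3 of 8 members passed, all higher, where 1.80% of all probe sets passed and 0.964% passed as higher. The median log2 change was 0.98 for the members and -0.03 for all probe sets. These calls lay close to the threshold, and calls were lost across the whole array when the model changed. With only both genotypes in the model 0 of 8 members and 0 of 22716 probe sets passed in limma, and with array weights 0 of 8 and 161. When bpc4 bpc6 replicate 2, wild type replicate 1 or either lhp1-4 replicate was left out 0 of 8 passed, and 61, 41 and 64 probe sets in all. In the full model 6 of 8 members and 16.4% of all probe sets had an unadjusted p under 0.05. Leaving out bpc4 bpc6 replicate 1 gave 2 (82 of all probe sets), leaving out wild type replicate 2 or either triple mutant replicate gave 1 (380 and 192 of all), and PAP1 had a log2 change of 1.56 without bpc4 bpc6 replicate 2 and missed the threshold after quantile normalization (adjusted p = 0.0531).

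In lhp1-4 a single gene of the pathway passed the test against wild type, with 4 genes higher and 4 lower in mean log2 intensity. F3H rose 2.06-fold, a log2 change of 1.04 ± 0.19 (adjusted p = 0.0253, limma), and was the 1 of 8 members that passed, where 6.01% of all probe sets did. CHI, next to it in the pathway, had a log2 change of 0.82 ± 0.27 (adjusted p = 0.137, limma). The late genes DFR and LDOX had log2 changes of -0.85 ± 0.40 (adjusted p = 0.266, limma) and -0.89 ± 0.31 (adjusted p = 0.158, limma), both with their 2 mutant arrays below the wild type arrays; of all probe sets 60.8% had no overlap between these genotypes. DFR rested on single arrays, at -0.43 without lhp1-4 replicate 1 and -1.28 without replicate 2. CHS differed by -0.09 ± 0.16 (adjusted p = 0.737, limma), with a 95% confidence interval from -0.48 to 0.29. UF3GT, at -0.12 ± 0.33, PAP1, at 0.40 ± 0.32, and F3'H, at 0.34 ± 0.26, did not pass either (adjusted p = 0.833, 0.488 and 0.473, limma). Median log2 changes were 0.58 for the early genes, -0.85 for the late genes and -0.07 for all probe sets. The F3H call ended without wild type replicate 1 (adjusted p = 0.114, limma) or without lhp1-4 replicates 1 or 2 (0.149 and 0.136), and UF3GT changed sign without lhp1-4 replicate 1 or wild type replicate 2.

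**Figure D2:**
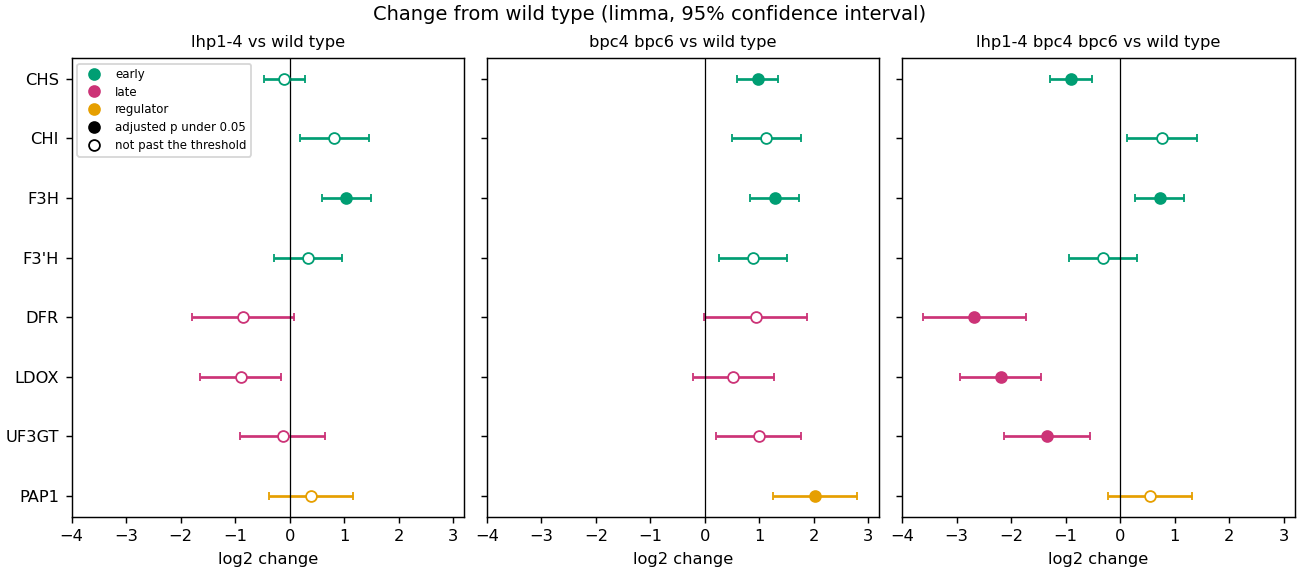
Log2 change of each gene from wild type in the 3 mutant genotypes, with 95% confidence intervals from limma; filled points passed the adjusted p of 0.05. All 8 points lie above 0 in bpc4 bpc6, whereas in the triple mutant DFR, LDOX, UF3GT and CHS lie below 0 and F3H above it.

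The change with lhp1-4 was then read in the bpc4 bpc6 background, a comparison that shares no array with lhp1-4 against wild type. It does share its arrays with the changes of bpc4 bpc6 and of the triple mutant from wild type. Each value equals the difference of those changes, so it is not a separate observation from them. From bpc4 bpc6 to the triple mutant all 8 genes had lower mean log2 intensities, and 6 of them passed the test. DFR fell 12.2-fold, a log2 change of -3.60 ± 0.40 (adjusted p = 0.00147, limma), and ranked 7 from the lowest of all probe sets. LDOX fell 6.54-fold, with a log2 change of -2.71 ± 0.31 (adjusted p = 0.00171, limma), and UF3GT fell 5.02-fold, with one of -2.33 ± 0.33 (adjusted p = 0.00363, limma). Early genes and the activator passed the test as well. CHS fell 3.64-fold, with a log2 change of -1.87 ± 0.16 (adjusted p = 0.000586, limma). PAP1 fell 2.79-fold, with a log2 change of -1.48 ± 0.32 (adjusted p = 0.0187, limma), and F3'H fell 2.28-fold, with one of -1.19 ± 0.26 (adjusted p = 0.0197, limma). F3H, at -0.56 ± 0.19 (adjusted p = 0.0815, limma), and CHI, at -0.37 ± 0.27 (adjusted p = 0.415, limma), did not pass. The arrays of CHI overlapped, and its log2 change was -0.02 without bpc4 bpc6 replicate 2. Of all probe sets 21.4% passed and 10.9% passed as lower, and the median log2 change was -1.67 for the members and -0.05 for all. Among the 11882 probe sets with a mean intensity of at least 50, 38.3% passed. CHS, DFR, LDOX and UF3GT passed with each array left out in turn. PAP1 did not pass without bpc4 bpc6 replicate 2 (adjusted p = 0.0640, limma) or triple mutant replicate 2 (0.0914), nor F3'H without bpc4 bpc6 replicate 2 (0.0641) or triple mutant replicates 1 or 2 (0.0951 and 0.0544), F3H passed without bpc4 bpc6 replicate 1 (0.0317), and both PAP1 and F3'H missed the threshold with only both genotypes in the model.

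With bpc4 bpc6 added to lhp1-4, 1 of the 8 genes passed the test. CHS fell 1.75-fold from lhp1-4 to the triple mutant, a log2 change of -0.80 ± 0.16 (adjusted p = 0.0497, limma), the 1 of 8 members that passed, where 3.31% of all probe sets passed and 1.13% passed as lower. The late genes had larger negative values with wider errors and did not pass. DFR had a log2 change of -1.82 ± 0.40 (adjusted p = 0.0607, limma), which ranked 5 from the lowest of all probe sets. LDOX stood at -1.29 ± 0.31 (adjusted p = 0.0786, limma) and UF3GT at -1.22 ± 0.33 (adjusted p = 0.103, limma; -0.78 without lhp1-4 replicate 2), and for all 3 late genes the arrays of the 2 genotypes did not overlap, as for 46.6% of all probe sets. PAP1, whose level was 4.07-fold above wild type in bpc4 bpc6, differed by 0.15 ± 0.32 in this background (adjusted p = 0.937, limma), with a 95% confidence interval from -0.62 to 0.91. CHI stood at -0.06 ± 0.27, F3H at -0.32 ± 0.19 and F3'H at -0.65 ± 0.26, none of which passed. The call of CHS sat at the threshold and ended with any 1 of the 8 arrays left out, with adjusted p from 0.0549 without triple mutant replicate 2 to 0.257 without lhp1-4 replicate 2, while LDOX passed without bpc4 bpc6 replicates 1 or 2 (0.0411 for each).

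**Figure D3:**
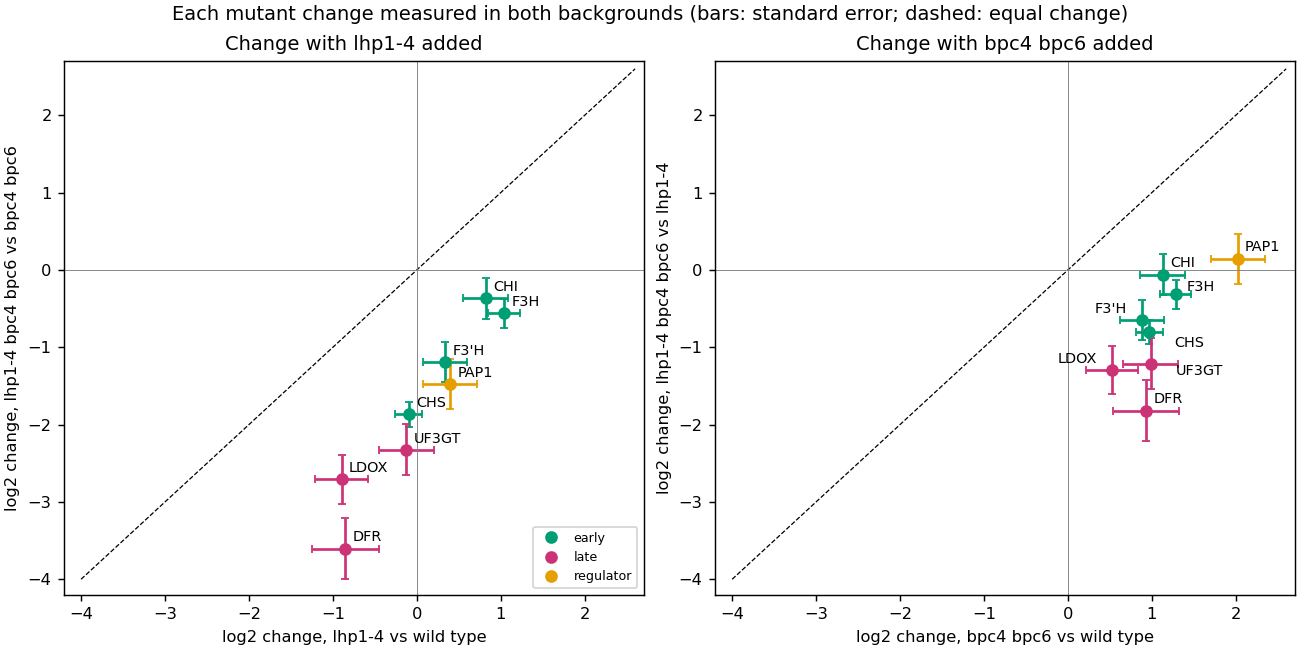
Log2 change of each gene with lhp1-4 (left) or bpc4 bpc6 (right) added, measured in wild type (horizontal axis) and in the other mutant (vertical axis); bars are standard errors and the dashed line marks equal changes. All 8 genes lie below the dashed line. The vertical distance of a gene from this line is the same in both panels by construction, so they are not separate observations. PAP1 lies at 2.02 on the horizontal and 0.15 on the vertical axis of the right panel.

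Whether both changes added up was tested by the interaction, the triple mutant plus wild type minus both other genotypes on the log2 scale. The value was below 0 for all 8 genes, and 2 of them passed the test. The same bpc4 bpc6 arrays enter this value and the changes from wild type above, so the shared signs are not separate observations. CHS, at -1.77 ± 0.23 (adjusted p = 0.0171, limma), and F3H, at -1.60 ± 0.27 (adjusted p = 0.0353, limma), were below the sum of the separate changes. This was 2 of 8, where 2.33% of all probe sets passed and 0.792% passed as negative. The other values ran from -2.75 ± 0.56 for DFR (adjusted p = 0.0630, limma), which ranked 10 from the lowest, to -1.19 ± 0.38 for CHI (adjusted p = 0.185, limma). UF3GT stood at -2.20 ± 0.47, PAP1 at -1.88 ± 0.46, LDOX at -1.82 ± 0.44 and F3'H at -1.52 ± 0.37. The unadjusted p was under 0.05 for 8 of 8 members and for 16.5% of all probe sets, and the median interaction was -1.79 for the members and 0.02 for all. Leaving out 1 array gave 0 calls without bpc4 bpc6 replicate 2, either lhp1-4 replicate or wild type replicate 1, 1 without either triple mutant replicate, 5 without bpc4 bpc6 replicate 1 and 2 when wild type replicate 2 was left out, while 23 to 401 of all probe sets passed. The sign of all 8 values held with each array left out.

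Replicate pools of 1 genotype differed along the pathway too, so the 8 genes are not 8 independent readings of a genotype. In bpc4 bpc6 replicate 2 exceeded replicate 1 for 8 of 8 genes, by 1.23-fold for CHS to 1.93-fold for DFR. For 7 of these genes the difference was over 0.5 on the log2 scale, as it was for 5.06% of all probe sets. In lhp1-4, replicate 2 exceeded replicate 1 by 1.81-fold for DFR and 1.83-fold for UF3GT but by 1.00-fold to 1.25-fold for the other 6. In the triple mutant CHS, CHI, F3H and F3'H were higher in replicate 2, while DFR, LDOX, UF3GT and PAP1 were lower in it. Both pools of the triple mutant thus differed one way in the late genes and PAP1 and the other way in the early genes. Wild type replicates differed by 0.978-fold to 1.43-fold, and replicate 2 was the higher for 7 of 8 genes. It was the higher for 8 of 8 in lhp1-4 and 4 of 8 in the triple mutant. Of all probe sets 41.3% were higher in replicate 2 in wild type, 50.5% in lhp1-4, 57.4% in the triple mutant and 54.2% in bpc4 bpc6. The labels do not say that a replicate number marks a shared batch. Deviations of same-numbered arrays correlated from -0.18 to 0.23 between genotypes. Why these genes shared a direction was not tested.

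**Figure D4:**
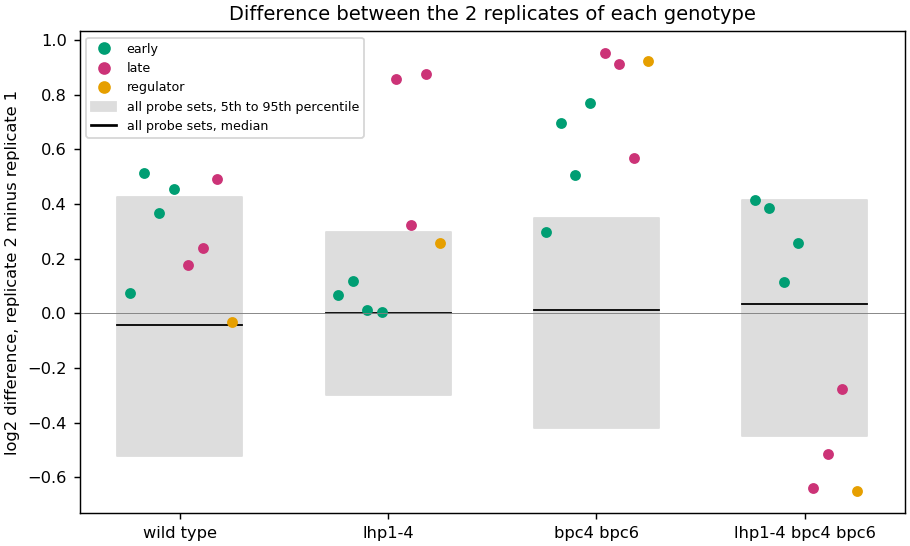
Log2 difference between replicate 2 and replicate 1 of each genotype for the 8 genes (points), beside the 5th to 95th percentile (grey) and median (line) of all probe sets. In bpc4 bpc6 7 of the 8 points lie above the grey band, and in the triple mutant DFR, LDOX and PAP1 lie below it.

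Other probe sets were ranked by their likeness to the mean scaled profile of the 8 genes, as Pearson's r over the 8 arrays, among 2153 probe sets whose genotype means spanned at least 1 log2 unit. The most alike was 246468_AT, with r = 0.983 and mean intensities of 307 in wild type, 539 in bpc4 bpc6, 304 in lhp1-4 and 238 in the triple mutant. Next came 254185_AT, with r = 0.977 and means of 78.5, 137, 85.3 and 56.0 in the same order. No gene is named for them in the sources used here. The 8 arrays are 4 genotypes in pairs, so these values describe a shared order of genotypes and pools.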

How the data were processed

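Probe set intensities came from the series' value table, which the authors deposited with RMA named in the submitters' processing notes; its version is not given in the sources used here. The deposited intensities were linear and ran from 1 to 999.7. From this it was inferred that values of 1000 or more were stored divided by 1000. Values under 3, and values of 10 to 100 with 3 decimals, were multiplied by 1000. Values of 10 to 100 with fewer decimals were multiplied too where the product lay within 5-fold of such a restored value of the probe set. Values of 3 to 10 were settled by other values of the same probe set, where it had any outside this range. The 5007 open probe sets, with all values at 3 to 10, were kept as deposited and tested. None of the 8 members held a deposited value of 3 to 10. Left out were 30 undecided probe sets and 1 control. The scaling was checked only on probe sets it had settled, which were rescaled and divided again, so the open and undecided ones were not covered. The tests were checked on simulated data.

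All 8 arrays entered 1 group-means model of log2 intensity in limma 3.58.1 (R 4.3.3), with 6 contrasts. Replicates are separate pools. The p-values rest on the spread between pools, taken over all 4 genotypes and drawn toward that of all probe sets. They do not measure the spread of the compared genotypes alone.

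The members, their gene names and the lists were chosen with earlier results of these data known. All 8 members are named. Loci came from RefSeq's TAIR10.1 gene table by gene name (8 of 8 matched). The names CHI and F3'H were each held by 2 genes there and PAP1 by 4, and 1 was chosen by a further name. The pairing of probe sets with gene names was given with the identifiers and was not checked. A wider pathway list and tissue markers were not analysed here, since no table used here pairs other probe sets with genes. Likewise, no sequence is shown. Alternatives changed the scale, normalization, model, filter, pairing and arrays.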

Additional observations from a re-analysis of the deposited data

Results flagged for a closer look

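The change with lhp1-4 differed between the wild type and the bpc4 bpc6 background in the interaction test for CHS and F3H. For CHS the interaction was -1.77 ± 0.23 on the log2 scale (adjusted p = 0.0171, limma): log2 intensity differed by -0.09 between lhp1-4 and wild type and by -1.87 between the triple mutant and bpc4 bpc6. The call ended without bpc4 bpc6 replicate 2 (adjusted p = 0.0573), lhp1-4 replicates 1 or 2 (0.0716 and 0.0984) or wild type replicate 1 (0.0710), with values from -1.81 to -1.62. For F3H the interaction was -1.60 ± 0.27 (adjusted p = 0.0353, limma), with differences of 1.04 and -0.56 in the same order. The call ended without lhp1-4 replicates 1 or 2 (adjusted p = 0.131 and 0.149), triple mutant replicates 1 or 2 (0.102 and 0.0906), bpc4 bpc6 replicate 2 (0.0691) or wild type replicate 1 (0.0986). Both signs rest on the restored scale.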

How the results depend on the processing

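Of 760 single-gene values under the alternatives, 646 kept direction and side of the threshold, 71 missed it, 32 newly passed it and 11 changed sign. Many could not change direction by construction, and 30 of 48 main values had not passed, so 646 is no measure of stability. On the values as deposited 0 of 8 passed in limma for lhp1-4 and for bpc4 bpc6 against wild type (4.82% and 1.53% of all probe sets), and 1 for the interaction (2.77%). Signs turned there, because the divided values are then read as they stand, for CHS in the triple mutant against wild type (9.07), bpc4 bpc6 (8.10) and lhp1-4 (9.16) and in the interaction (8.19), which all passed the test, and for F3H in bpc4 bpc6 against wild type (-3.70), in the triple mutant against bpc4 bpc6 (4.42) and in the interaction (3.38), which did not. With a single array left out, UF3GT in lhp1-4 against wild type ran from -0.56 to 0.31, above 0 without lhp1-4 replicate 1 or wild type replicate 2 (0.12). In the triple mutant against lhp1-4 CHI ran from -0.25 to 0.13 and PAP1 from -0.18 to 0.47, with the sign turned without triple mutant replicate 1. None of these values with an array left out passed the test.

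With 1 array left out the members called by limma ran from 0 to 1 in lhp1-4 against wild type, 0 to 2 in bpc4 bpc6 against wild type, 3 to 6 in the triple mutant against wild type, 4 to 7 against bpc4 bpc6, 0 to 1 against lhp1-4 and 0 to 5 for the interaction. The number of all probe sets passing moved too in each comparison, not always in step with the members. With only the compared genotypes 0 were called for bpc4 bpc6 against wild type (0 of all 22716). The triple mutant against lhp1-4 had 0 (1.70%). Array weights gave 0 for bpc4 bpc6 against wild type (0.709% of all) and 3 for the triple mutant against wild type (16.3%). A trended, robust variance prior gave 3 in the triple mutant against lhp1-4 (4.61% of all) and 4 for the interaction (2.96%). A mean intensity of at least 50, met by 11882 probe sets, gave 4 (9.42% of these) and 7 (6.51%). F3'H, UF3GT and PAP1 met it only through bpc4 bpc6, with means of 41.7, 46.2 and 35.0 over the other arrays, so these counts support nothing; of the other 5 members 3 and 4 passed. At unadjusted p under 0.05 the full model had 3, 6, 6, 7, 5 and 8 members in these 6 comparisons, beside 22.0%, 16.4%, 36.1%, 33.1%, 18.4% and 16.5% of all probe sets. With a replicate block in the model, 2 members were called for lhp1-4 (6.15% of all) and 4 for bpc4 bpc6 (2.07%) against wild type. The interaction had 5 (2.49%). The triple mutant gave 6 against wild type (24.4%), 7 against bpc4 bpc6 (22.0%) and 1 against lhp1-4 (3.47%). The interaction could not be fitted with fewer genotypes. The cause of these differences was not tested.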
